A study of Mus musculus with 12 samples.

Results

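The interleukin 2 (IL-2) receptor and the signalling genes behind it were followed in regulatory T cells (Treg) taken from 3 sites of mice with a venous thrombus. The 10 genes were chosen by name: the receptor chains Il2ra, Il2rb and Il2rg, the kinases Jak1 and Jak3, the transcription factors Stat5a and Stat5b, and the inhibitors Socs1, Socs2 and Cish. They are 10 of 20856 genes that could be matched over all 12 libraries, and all 10 were among the 11706 that passed the filter on low counts.

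The cells were CD69+ Treg of DEREG mice, a C57BL/6 line whose transgene, Tg(Foxp3-DTR/EGFP), expresses a diphtheria toxin receptor and EGFP under Foxp3 control. The inferior vena cava had been ligated in every mouse, and cells were sorted at day 14 from the thrombus, from the vein wall and, as the lymphoid site, from the spleen of ligated animals. No unligated mouse and no toxin treatment is named in the labels, and the age of the mice and the number of mice per library are not given there. Bulk RNA sequencing gave 4 libraries a tissue, so the p-values speak only for the scatter among these libraries, some of which may be technical.

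IL-2 is made mainly by conventional T cells, and Treg take it up through a receptor of 3 chains. The alpha chain, CD25, raises the affinity for the cytokine, while the beta chain and the common gamma chain carry the signal through the kinases JAK1 and JAK3 to STAT5A and STAT5B. STAT5 maintains Foxp3 in Treg and induces genes that include Il2ra itself and the inhibitors of the pathway, among them Cish, Socs1 and Socs2, which form a negative feedback loop.

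A pair of spleen libraries and a pair of vein wall libraries (numbers 3 and 4 in both) differed far less than any other pair of 1 tissue, with a mean chi-square per gene of 3.96 and 2.56 against 96.8 to 354.9 in the other 16 pairs. The reads of such a pair were added up and treated as a single sample, 3-4, which left 4 thrombus, 3 vein wall and 3 spleen samples. The deposited files were of 3 kinds, here called sets, with different columns and gene annotation. Thrombus 1 and spleen 1 formed set 1, thrombus 2, vein wall 1 and spleen 2 set 2, and the other 5 samples set 3. Libraries held 9719151 to 55386086 exon reads. The 7 genes that mark the sorted cells (Foxp3, Cd4, Cd3e, Cd69, Ptprc, Ikzf2, Ctla4) were above 0 in every sample, with summed levels, in reads scaled to library size as CPM, of 4213 to 5625 CPM in thrombus, 4508 to 6268 CPM in vein wall and 4190 to 5831 CPM in spleen. Within these sums, Cd69 had 405.8 to 818 CPM in thrombus, 637 to 877.5 CPM in vein wall and 240 to 347 CPM in spleen. Ctla4 had 829 to 1433 CPM, 874 to 1228 CPM and 522 to 776 CPM in the same order. Cd4 was lower in vein wall (74.6 to 111 CPM) than in spleen (118 to 157 CPM). Foxp3, Cd3e, Ptprc and Ikzf2 overlapped spleen in both tissues. Without overlap with spleen were 4.98% of all genes in thrombus and 13.2% in vein wall. Markers of other cells were present as well. The 6 B cell markers summed to 200.3 to 944 CPM in thrombus, 360.1 to 1271 CPM in vein wall and 158 to 295.5 CPM in spleen, and the 6 macrophage markers to 45.1 to 1552 CPM in thrombus, 19.4 to 260.4 CPM in vein wall and 21.0 to 140.1 CPM in spleen. The highest macrophage and B cell sums of a tissue other than spleen were in thrombus 2 and vein wall 1, both of set 2. Lyz2 alone reached 1349 CPM in thrombus. Csf1r went the other way, at 6.91 to 10.4 CPM in spleen, 1.58 to 5.98 CPM in thrombus and 0.253 to 2.99 CPM in vein wall. The means of Adgre1, Cd68, Itgam and Cd14 were higher in thrombus than in spleen. In vein wall those of Adgre1 and Cd68 were lower than in spleen. Among the B cell markers the mean of Pax5 was lower in thrombus (3.00 CPM) than in spleen (5.28 CPM). That of Jchain was lower in vein wall (19.4 CPM) than in spleen (35.75 CPM). All other B cell marker means of thrombus and vein wall were higher than in spleen. The 6 fibroblast markers summed to 4.34 to 18.7 CPM in thrombus, 10.3 to 59.8 CPM in vein wall and 0 to 0.453 CPM in spleen. In spleen Col1a2, Col3a1 and Pdgfra were at 0 in all 3 samples. Pdgfra was also at 0 in 3 of 4 thrombus and 2 of 3 vein wall samples. The part of other cells in the results below was not tested. In bulk samples, fewer cells of a type and less RNA per cell cannot be told apart.

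In outline, the receptor, kinase and STAT5 genes were expressed at all 3 sites, and no difference between sites passed the test on tissue alone. The largest differences from spleen were those of Socs1, with log2 fold changes relative to spleen of -1.46 ± 1.04 (SE) for thrombus and -1.50 ± 1.14 for vein wall, and of Jak3 in vein wall, at -1.55 ± 0.68, where the reads are shared with an overlapping gene. Il2ra had 0.64 ± 0.35 for thrombus and 0.87 ± 0.37 for vein wall. With edgeR's quasi-likelihood test at a Benjamini-Hochberg adjusted p under 0.05, 0 of the 10 genes were called in thrombus against spleen, where 0.145% of all tested genes were called. In vein wall against spleen 0 of the 10 were called, with 0.111% of all genes, and in thrombus against vein wall 0 of the 10, with 0% of all genes. At an unadjusted p under 0.05 the counts were 0, 2 (Il2ra and Jak3) and 1 (Jak3), with 484, 640 and 341 of all 11706 genes. Tissue-only DESeq2 called 0 of the 10 in each comparison, with 149, 194 and 50 of 13074 genes called in the same order. A gene that was not called is not thereby shown to be at the same level in these tissues, given the SEs printed with each value. Both comparisons with spleen use the same 3 spleen samples.

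The median log2 fold change of the 10 genes was 0.40 in thrombus against spleen, where that of all tested genes was 0.03. It was 0.16 in vein wall against spleen, with -0.01 over all genes, and 0.13 in thrombus against vein wall, with 0.04 over all genes. Once the set of files was a second factor, the medians of the 10 genes were 0.36, 0.03 and 0.01 in these comparisons, with -0.01, -0.02 and 0.01 over all genes, so that a similar median stayed in thrombus against spleen and the others were close to 0.

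**Figure D1:**
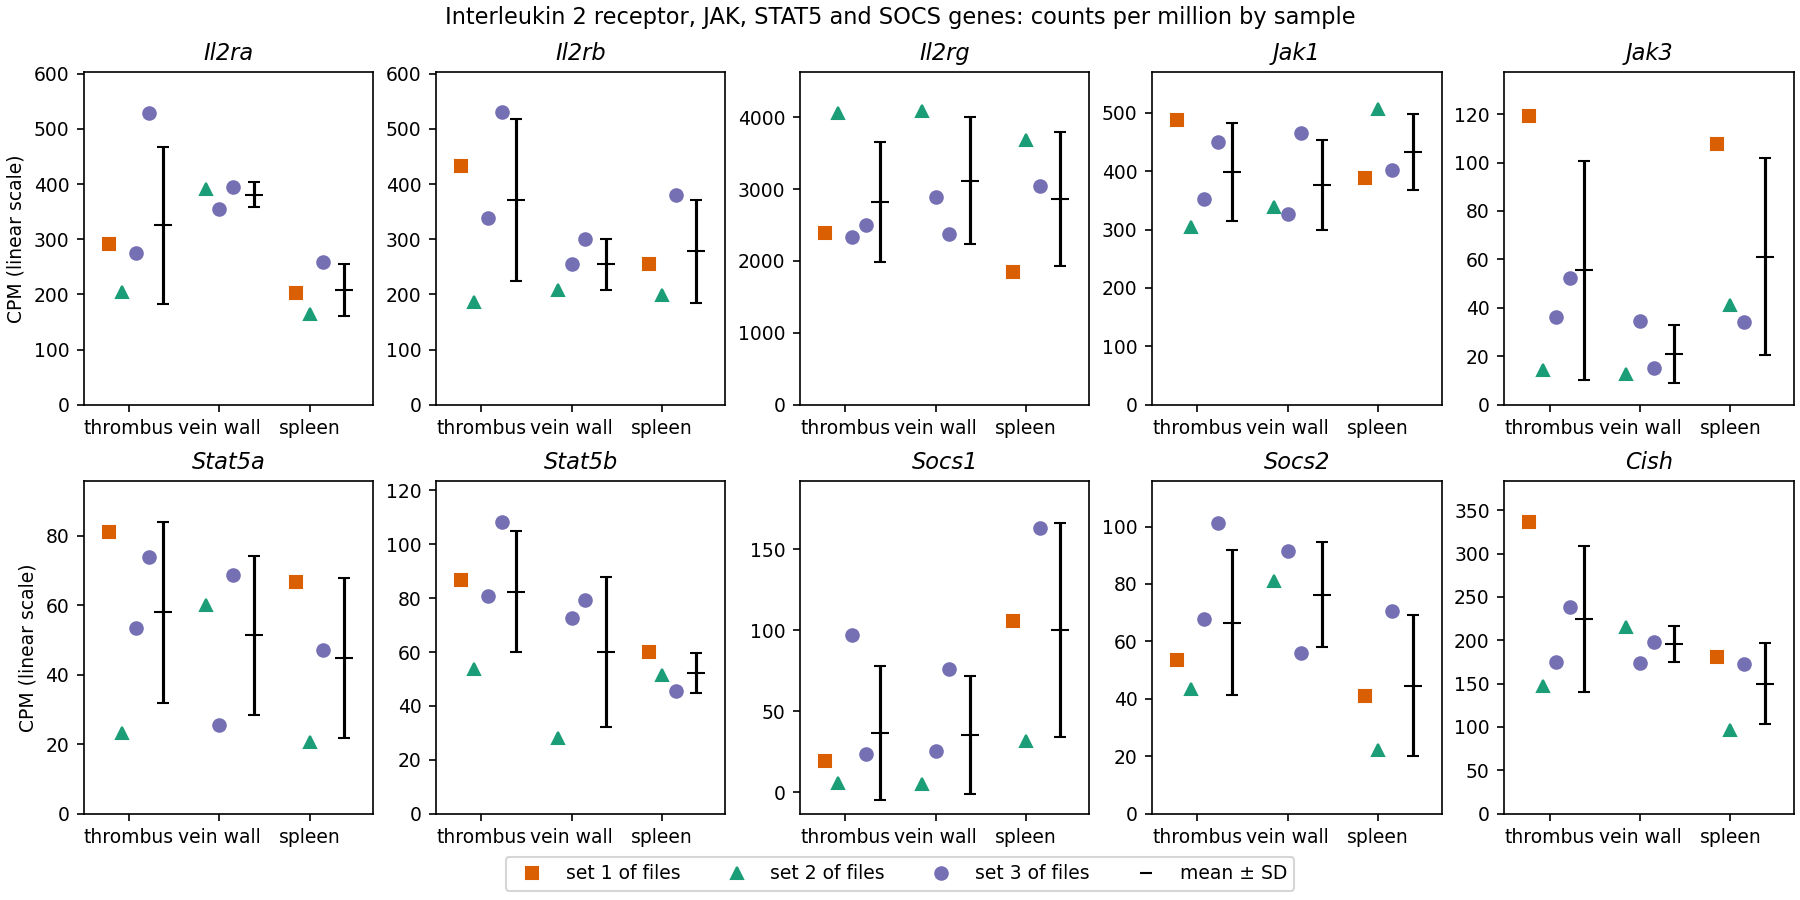
Level of each of the 10 genes in every sample, in CPM on a linear axis that differs between panels, by tissue. Symbols give the set of files and bars the mean ± SD of 4 thrombus, 3 vein wall and 3 spleen samples. The vein wall samples lie above all spleen samples for Il2ra, and Socs1 spreads from 5.13 to 163 CPM.

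Per length of exon, the common gamma chain gene stood far above the others. Over the 10 samples the median level in RPKM, exon reads scaled to exon length and library size, was 1512 for Il2rg, 99.5 for Il2rb, 70.9 for Jak1, 55.9 for Il2ra and 44.7 for Cish. It was 20.4 RPKM for Socs1, 11.8 for Stat5b, 11.3 for Stat5a, 7.76 for Jak3 and 6.94 for Socs2. The samples ranged from 850 to 2094 RPKM for Il2rg and from 32.9 to 189.5 RPKM for Il2rb, so that Il2rg ranked first without overlap. The next 4 genes overlapped, with 44.5 to 90.1 RPKM for Jak1, 34.1 to 101 RPKM for Il2ra and 20.6 to 65.1 RPKM for Cish. The exon length of a gene differs between the sets, and with samples of 1 exon length alone the medians were 1491 RPKM for Il2rg, 118 for Il2rb, 81.0 for Jak1, 60.5 for Il2ra and 56.4 for Socs1.

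The genes also differed in how much they scattered over the 10 samples. The SD of log2 CPM was 0.26 for Jak1, 0.38 for Il2rg, 0.47 for Cish, 0.51 for Il2rb and 0.52 for Il2ra. It was 0.56 for Stat5b, 0.65 for Socs2, 0.74 for Stat5a, 1.12 for Jak3 and 1.71 for Socs1.

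Il2ra encodes CD25, the chain that distinguishes the high-affinity receptor of Treg, and lies at chr2:11642807-11693193 (GRCm38) on the plus strand. Its level was 291, 204, 275 and 529 CPM in thrombus 1 to 4, 392, 355 and 395.5 CPM in vein wall 1, 2 and 3-4, and 202, 164 and 258 CPM in spleen 1, 2 and 3-4. Every vein wall sample lay above every spleen sample, while thrombus overlapped spleen at its low end. Between thrombus and spleen each of the 10 genes overlapped, as did all but 4.98% of the genes tested. Of all genes tested, 6.77% were likewise higher in vein wall than in spleen without overlap, and Il2ra was the only one of the 10 to be so. The means were 324.9 ± 141.5 CPM in thrombus (SD, n = 4), 381 ± 22.3 CPM in vein wall (n = 3) and 208 ± 47.4 CPM in spleen (n = 3). The edgeR adjusted p was 1 in thrombus and 0.848 in vein wall, against spleen. With the set of files as a second factor the log2 fold changes were 0.56 ± 0.27 (adjusted p = 0.735 by edgeR) and 0.82 ± 0.30 (adjusted p = 0.445 by edgeR). Of the Il2ra exon reads, 41.2% to 45.3% were listed as unique in set 2 and at least 99.95% in sets 1 and 3.

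Il2rb, the signalling chain shared with the IL-15 receptor, showed no such order. It had 432, 186, 339 and 531 CPM in thrombus 1 to 4, 208, 255 and 301 CPM in vein wall, and 256, 198 and 380 CPM in spleen. The 3 tissues overlapped, with the lowest and the highest sample both from thrombus. Relative to spleen its log2 fold change came to 0.42 ± 0.37 (SE) for thrombus and -0.13 ± 0.39 for vein wall.

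Il2rg encodes the common gamma chain, shared by the receptors of IL-2, IL-4, IL-7, IL-9, IL-15 and IL-21. Its level was 2384, 4062, 2331 and 2505 CPM in thrombus 1 to 4, 4094, 2885 and 2373 CPM in vein wall, and 1846, 3689 and 3044 CPM in spleen. In each tissue the highest sample was the one of set 2. Of the Il2rg exon reads, 6.80% to 7.41% were listed as unique in the libraries of sets 1 and 3 and 100% in those of set 2, so that the levels of the sets rest on different gene models. The log2 fold changes against spleen were -0.02 ± 0.33 (SE) for thrombus and 0.12 ± 0.35 for vein wall. With the set of files in the fit they were 0.02 ± 0.18 and 0.04 ± 0.20.

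The ratio of the alpha to the beta chain was taken within each sample from RPKM values. Il2ra over Il2rb was 0.360, 1.14, 0.433 and 0.533 in thrombus 1 to 4, 1.95, 0.745 and 0.702 in vein wall, and 0.4215, 0.855 and 0.363 in spleen. The ratio was higher in vein wall than in spleen within set 2 (1.95 against 0.855) and within set 3 (0.745 and 0.702 against 0.363). The highest value of each tissue belonged to set 2, where Il2ra and Il2rb have other exon lengths than in sets 1 and 3.

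Jak1, the kinase that docks on the beta chain, varied least. It had 487, 304, 352 and 450 CPM in thrombus 1 to 4, 338, 326 and 465 CPM in vein wall, and 388, 507 and 402 CPM in spleen. The tissues overlapped, and the log2 fold changes against spleen were -0.12 ± 0.30 (SE) in thrombus and -0.20 ± 0.32 in vein wall.

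Jak3 docks on the common gamma chain. It had 119, 14.4, 36.2 and 52.5 CPM in thrombus 1 to 4, 12.8, 34.7 and 15.2 CPM in vein wall, and 108, 41.4 and 34.1 CPM in spleen. The 2 samples of set 1 stood above 100 CPM and all others below 55 CPM. On tissue alone, the log2 fold change of Jak3 in vein wall was -1.55 ± 0.68 (SE) against spleen (adjusted p = 0.885 by edgeR), and that of thrombus against vein wall 1.41 ± 0.65 (adjusted p = 1 by edgeR).

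These values depend on a neighbour. Insl3, known as a hormone gene of testicular Leydig cells, lies at chr8:71689214-71690575 (GRCm38) within the span of Jak3 (chr8:71676296-71690575) on the same strand, and none of its exon reads was unique in any library. The reads listed for Insl3 came to 0.0544% of those of Jak3 in thrombus 1 and 0.455% in spleen 1, the samples of set 1. In the other samples they came to 49.6%, 89.5% and 78.6% in thrombus 2 to 4, 96.5%, 72.8% and 213.8% in vein wall, and 31.4% and 52.9% in spleen 2 and 3-4. With the reads of both genes added, the level was 119, 21.6, 68.5 and 93.7 CPM in thrombus 1 to 4, 25.1, 59.9 and 47.7 CPM in vein wall, and 108, 54.3 and 52.1 CPM in spleen. The log2 fold change of vein wall against spleen was then -0.69 ± 0.55 (SE), and -0.55 ± 0.44 with the set of files as a factor. Set 1 remained highest. Of the Jak3 exon reads, 62.85% to 73.8% were listed as unique in set 1 and 89.4% to 97.7% in sets 2 and 3. The exon length of Jak3 was 5352 bases in set 1, 4085 in set 2 and 4466 in set 3.

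**Figure D2:**
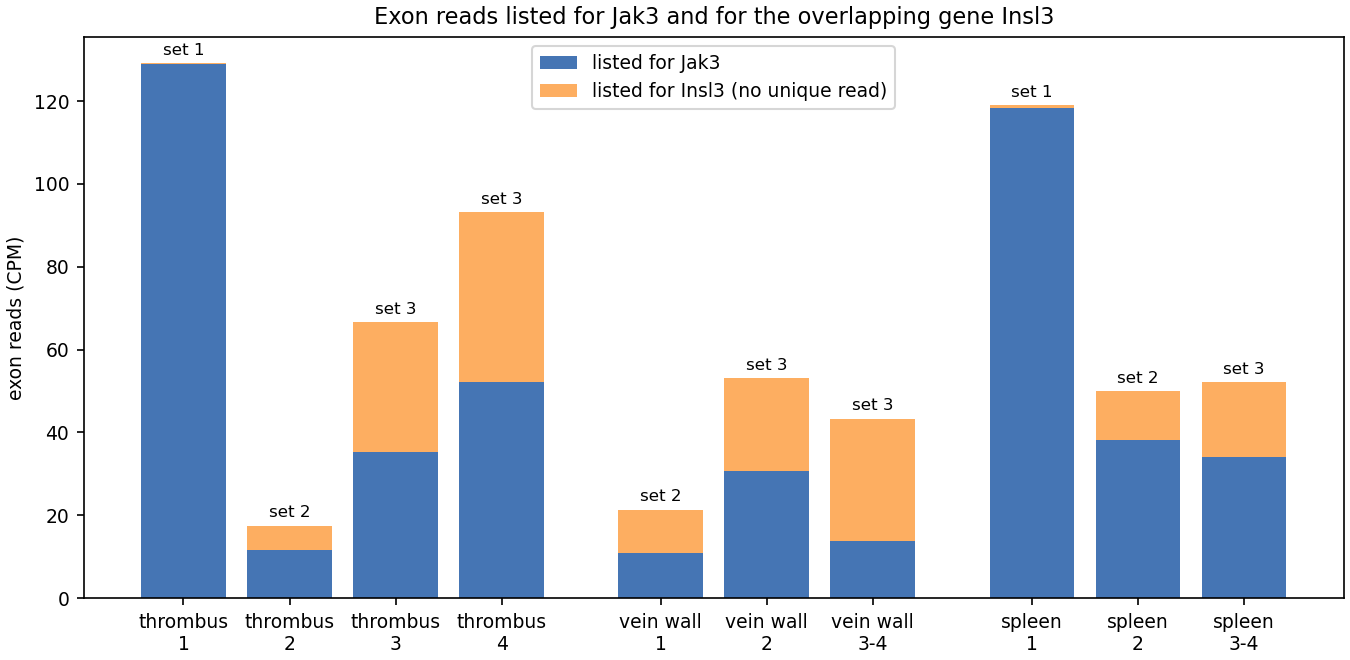
Exon reads listed for Jak3 (blue) and for Insl3 (orange) in each sample, scaled to all exon reads of the sample as CPM without TMM, with the set of files above each bar. In vein wall 3-4 the reads listed for Insl3 were 213.8% of those of Jak3, and in set 1 under 1%.

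Stat5a and Stat5b are neighbouring genes on chromosome 11 (chr11:100859351-100885169 and chr11:100780731-100850724) whose products are closely alike. Stat5a had 81.0, 23.2, 53.4 and 73.9 CPM in thrombus 1 to 4, 59.95, 25.4 and 68.7 CPM in vein wall, and 66.6, 20.7 and 47.0 CPM in spleen. Stat5b had 86.9, 53.8, 80.8 and 108 CPM in thrombus 1 to 4, 28.1, 72.6 and 79.5 CPM in vein wall, and 60.2, 51.4 and 45.5 CPM in spleen. Both genes overlapped between tissues, with 3 of 4 thrombus samples above every spleen sample for Stat5b. The log2 fold changes of thrombus against spleen were 0.37 ± 0.52 (SE) for Stat5a and 0.65 ± 0.43 for Stat5b, and those of vein wall were 0.20 ± 0.55 and 0.20 ± 0.45. Stat3, the STAT of IL-6 and IL-10 signalling, lies at chr11:100885098-100939540 on the other strand. It overlaps the end of Stat5a in the gene models of sets 1 and 3 only. The libraries do not mark strand, so reads within this overlap cannot be told apart from those of Stat3. Of the exon reads of the STAT5 genes, 90.7% to 97.9% were unique for Stat5a and 91.4% to 99.1% for Stat5b.

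Intron reads, a column that the levels above do not use, set the STAT5 genes apart from each other. Introns held 56.0%, 61.1%, 74.4% and 69.6% of the Stat5b gene reads in thrombus 1 to 4, 77.5%, 70.1% and 56.0% in vein wall, and 64.5%, 41.9% and 57.8% in spleen. For Stat5a the share was 20.0%, 35.0%, 11.6% and 9.43% in thrombus, 11.8%, 29.9% and 14.3% in vein wall, and 8.21%, 6.76% and 16.7% in spleen. The Stat5b share was the higher one in all 10 samples, and it stood above the 12.1% to 20.5% of all gene reads that fell in introns per library. Among the other genes the highest share was 24.3%, for Il2ra. Scaled to the exon reads of the library without TMM, Stat5b had 119, 68.7, 228 and 247 CPM of intron reads in thrombus 1 to 4, 82.2, 151 and 91.9 in vein wall, and 120, 34.1 and 62.3 in spleen. Within sets 2 and 3 each thrombus and vein wall sample had more of them than its spleen sample, whereas in set 1 thrombus and spleen were level.

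**Figure D3:**
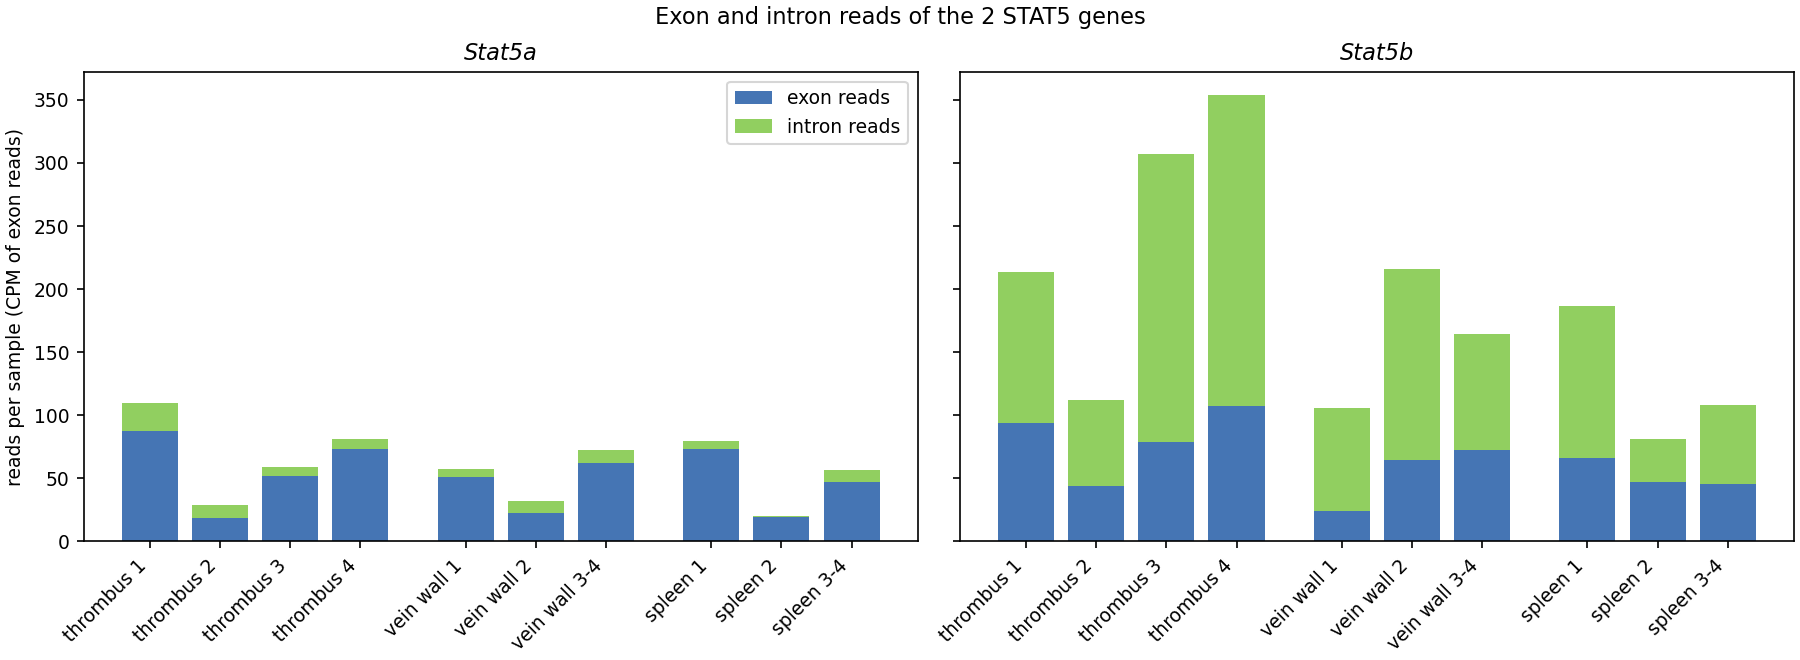
Exon reads (blue) and intron reads (green) of Stat5a and Stat5b in each sample, scaled to all exon reads of the sample as CPM without TMM, on 1 linear axis. Intron reads make up 41.9% to 77.5% of the Stat5b bars and 6.76% to 35.0% of the Stat5a bars.

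Socs1 encodes an inhibitor that binds Janus kinases, and it limits IL-2 and interferon signalling in T cells. The gene lies at chr16:10783808-10785536 on the minus strand. It had 19.3, 5.93, 97.3 and 23.3 CPM in thrombus 1 to 4, 5.13, 25.1 and 75.75 CPM in vein wall, and 106, 31.7 and 163 CPM in spleen. Thrombus 3 and vein wall 3-4 overlapped the spleen range, and the other 5 samples lay below every spleen sample. The means were 36.5 ± 41.2 CPM in thrombus (SD, n = 4), 35.3 ± 36.4 CPM in vein wall (n = 3) and 100.1 ± 65.8 CPM in spleen (n = 3). In every tissue the lowest sample was the one of set 2.

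Against the spleen sample of its own set, each of the 7 thrombus and vein wall samples was lower for Socs1. The differences in log2 CPM were -2.45, -2.42, -0.74 and -2.81 in thrombus 1 to 4 and -2.63, -2.70 and -1.11 in vein wall 1, 2 and 3-4. With the set of files in the fit, the log2 fold change relative to spleen came to -2.08 ± 0.51 (SE) for thrombus and -2.26 ± 0.58 for vein wall. The edgeR adjusted p of that fit was 0.112 in thrombus and 0.153 in vein wall, above the threshold, where 0.453% and 0.41% of all genes were called. The unadjusted p under 0.05 was met in that fit by 2 of the 10 genes in thrombus (Socs1 and Cish) and by 3 in vein wall (Socs1, Cish and Il2ra). Of all 11706 genes tested, 794 and 918 met it in these comparisons. DESeq2 with the same factors called Socs1 in both comparisons, with -2.05 ± 0.55 (adjusted p = 0.0121) and -2.27 ± 0.62 (adjusted p = 0.0133). It called 2.61% and 2.93% of all genes, 0.701% and 1.12% as lower, and none of the other 9 genes.

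With all samples edgeR did not call Socs1. Of the fits with the set of files and 1 sample left out, only that without thrombus 3 called it, in thrombus against spleen. Thrombus 3 was the highest thrombus sample for Socs1. Without that sample the fit with the set of files gave -2.54 ± 0.50 for Socs1 in thrombus against spleen (adjusted p = 0.0317 by edgeR), and over the 10 samples left out in turn the edgeR adjusted p ran from 0.0317 to 0.531. In vein wall against spleen it ran from 0.0676 to 0.653, with log2 fold changes of -2.78 to -1.97. Without thrombus 2, which had the highest macrophage marker sum, the thrombus value of that fit was -2.0 ± 0.60 (adjusted p = 0.389 by edgeR). Without vein wall 1, which had the highest B cell marker sum, the vein wall value was -2.11 ± 0.73 (adjusted p = 0.636 by edgeR). On tissue alone the values without these samples were -1.07 and -0.95, against -1.46 and -1.50 with all samples. The part of other cells in these values was not tested.

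**Figure D4:**
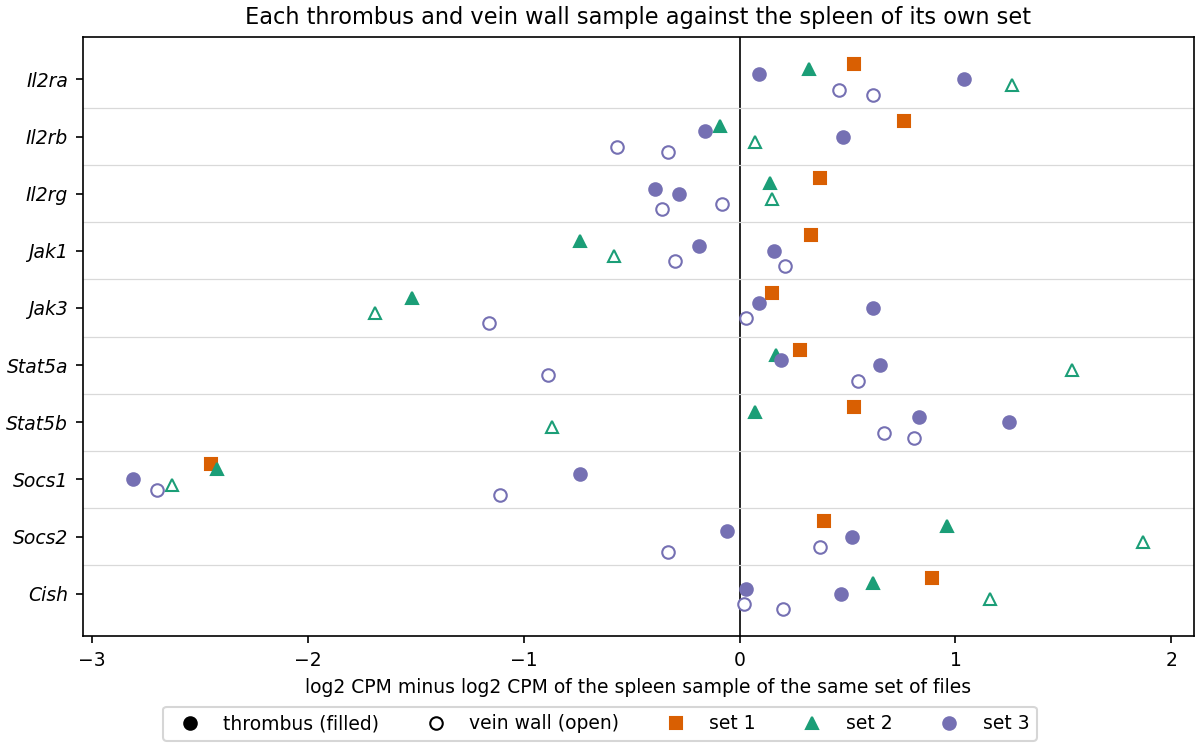
Difference in log2 CPM of each thrombus (filled) and vein wall (open) sample from the spleen sample of its own set of files, for the 10 genes. All 7 points lie left of 0 for Socs1 and right of 0 for Il2ra and Cish, with the nearest Cish point at 0.02.

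Cish encodes CIS, an inhibitor that STAT5 induces and that binds to activated receptors, and the gene lies at chr9:107296026-107302784 on the plus strand. Its level was 337, 147, 175.5 and 239 CPM in thrombus 1 to 4, 215, 174 and 198 CPM in vein wall, and 181, 96.0 and 172 CPM in spleen. The ranges overlapped, with 2 of 4 thrombus and 2 of 3 vein wall samples above every spleen sample. Relative to spleen the log2 fold change came to 0.58 ± 0.36 (SE) for thrombus and 0.39 ± 0.38 for vein wall, and to 0.58 ± 0.27 and 0.62 ± 0.29 with the set of files in the fit (adjusted p = 0.697 and 0.635 by edgeR). Within its own set every sample was above its spleen sample, by 0.89, 0.62, 0.03 and 0.47 in thrombus 1 to 4 and by 1.16, 0.02 and 0.20 in vein wall on the log2 scale. The share of Cish exon reads listed as unique was 13.9% to 27.0% in sets 1 and 3 and 100% in set 2.

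STAT5 binds the palindrome TTCNNNGAA, so the 300 bases around the RefSeq start of each gene (250 before it and 50 from it on, GRCm38.p6) were searched for it. Entries existed for 8 of the genes, in 10 windows; Il2rb and Socs2 had none. The Cish window held 2 matches and the other 9 windows held none, whereas 8.3% of 32851 promoters held at least 1 and 0.457% held 2 or more. The matches in Cish begin at bases 251 and 262 of the window and do not overlap. A match is a description of the sequence and not evidence of binding, and outside these windows nothing was searched. Whether a match bears on the level of a gene was not tested. The Cish window (chr9:107296409-107296708, plus strand) is given 5′ to 3′ as RefSeq has it, with its matches in capitals. The Socs1 window (chr16:10785487-10785786, minus strand) stands beside it as that of another inhibitor of the pathway.
Cish: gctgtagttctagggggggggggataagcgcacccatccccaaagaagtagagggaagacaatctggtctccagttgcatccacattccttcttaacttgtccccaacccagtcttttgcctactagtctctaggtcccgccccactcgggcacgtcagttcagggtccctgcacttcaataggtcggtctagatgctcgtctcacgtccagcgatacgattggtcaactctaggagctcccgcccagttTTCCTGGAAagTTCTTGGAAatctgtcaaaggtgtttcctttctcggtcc
Socs1: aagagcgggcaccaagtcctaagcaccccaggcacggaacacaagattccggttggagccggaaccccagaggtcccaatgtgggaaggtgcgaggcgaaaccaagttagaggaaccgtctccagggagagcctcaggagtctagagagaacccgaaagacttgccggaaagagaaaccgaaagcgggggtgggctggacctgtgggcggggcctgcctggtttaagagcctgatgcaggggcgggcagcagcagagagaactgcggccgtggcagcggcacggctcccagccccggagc

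The ratio of these inhibitors within a sample was computed after the values of both had been seen. In RPKM, Socs1 over Cish was 0.302, 0.129, 1.66 and 0.291 in thrombus 1 to 4, 0.0763, 0.430 and 1.15 in vein wall, and 3.07, 1.06 and 2.83 in spleen. That each of the 7 lies below its own spleen sample follows from the positions of both genes given above. Only thrombus 3 and vein wall 3-4 lay above the lowest spleen value.

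Socs2, an inhibitor best known for limiting growth hormone signalling and also a STAT5 target, had 53.5, 43.3, 67.8 and 101 CPM in thrombus 1 to 4. It had 81.2, 91.5 and 56.0 CPM in vein wall, and 40.95, 22.2 and 70.7 CPM in spleen. The tissues overlapped, with spleen 2 lowest of the 10. Of the Socs2 exon reads, 71.2% to 75.15% were listed as unique in set 1 and at least 96.57% in sets 2 and 3. The log2 fold changes against spleen were 0.57 ± 0.45 (SE) for thrombus and 0.77 ± 0.48 for vein wall (adjusted p = 1 and 0.959 by edgeR), and 5 of 7 samples lay above the spleen sample of their own set.

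**Figure D5:**
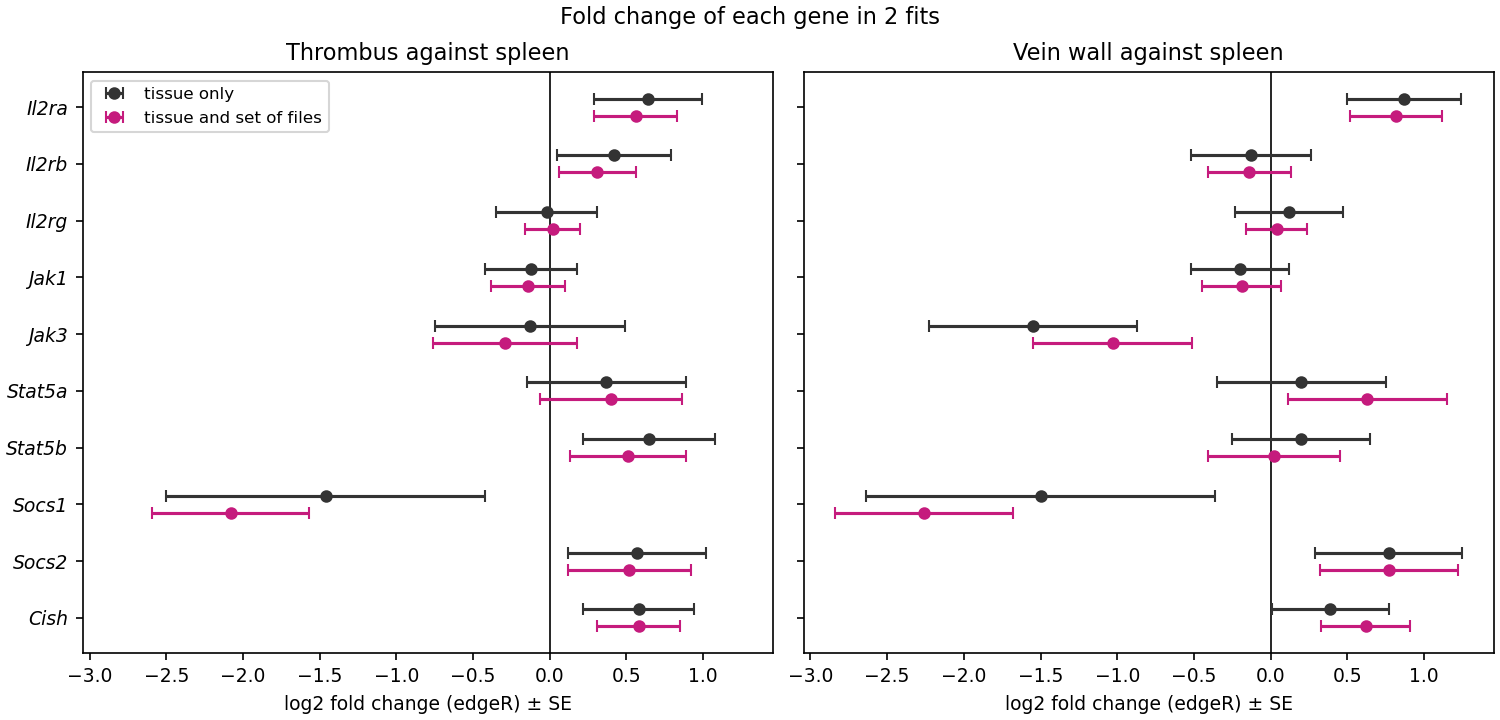
Log2 fold change of thrombus (left) and vein wall (right) against spleen for each gene, from edgeR with tissue alone (grey) and with tissue and set of files (pink), with SE bars. Socs1 lies at -1.46 and -1.50 on tissue alone and at -2.08 and -2.26 with the set of files, and Jak3 in vein wall lies at -1.55 and -1.03.

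Counted over the 10 genes, 2 (Il2ra and Cish) were higher and 1 (Socs1) was lower in all 7 thrombus and vein wall samples than in the spleen sample of their own set. Of all tested genes 4.04% were higher and 5.07% lower in this way, 9.11% in all. This count was chosen after values had been seen, and the 4 samples of set 3 share 1 spleen sample, as do the 2 of set 2. The other genes were above their spleen sample in 6 of 7 samples (Stat5a and Stat5b), 5 (Socs2), 4 (Jak3) or 3 (Il2rb, Il2rg and Jak1).

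Between thrombus and vein wall none of the 10 genes was called, and the tissues overlapped for each of them, as for all but 3.84% of the genes tested. On tissue alone the largest values were those of Jak3, given above, and Il2rb, with a log2 fold change of thrombus against vein wall of 0.55 ± 0.37 (SE). In the fit with the set of files they were those of Jak3 at 0.73 ± 0.47 (SE), Stat5b at 0.49 ± 0.38 and Il2rb at 0.45 ± 0.26. With the reads listed for Insl3 added, Jak3 had 0.78 ± 0.52 on tissue alone. In the fit with the set of files it then had 0.42 ± 0.40, below Stat5b and Il2rb. Socs1 lay at 0.04 on tissue alone and at 0.18 ± 0.50 (SE) with the set of files. With the set of files in the edgeR fit 0 of the 10 had an unadjusted p under 0.05, with 491 of all 11706 genes.

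The wider pathway was read from 6 lists of 72 genes, of which 69 were tested (Il7, Il9 and Gab2 did not pass the filter). In edgeR 0 of the 69 were called in each comparison, on tissue alone or with the set of files. On tissue alone 2, 3 and 3 of them had an unadjusted p under 0.05 in thrombus against spleen, vein wall against spleen and thrombus against vein wall. With the set of files the counts were 5, 8 and 5. Of all 11706 genes, 484, 640 and 341 had such a p on tissue alone, and 794, 918 and 491 with the set of files. The DESeq2 fits held 71 of the 72 genes. With the set of files DESeq2 called 1, the cell cycle gene Ccnd3 in thrombus against vein wall, where it called 0.907% of all genes. Tissue-only DESeq2 called 0 of the 71 in each comparison, with 149, 194 and 50 of 13074 genes called.

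Of 21 genes known as STAT5 targets in T cells, 16 had a log2 fold change above 0 in thrombus against spleen (median 0.39) and 13 in vein wall against spleen (median 0.46). All tested genes had medians of 0.03 and -0.01. With the set of files in the fit 14 and 13 of the 21 were above 0, with medians of 0.26 and 0.14, against -0.01 and -0.02 over all genes. The list includes Foxp3 and Ctla4, which also mark the sorted cells, and STAT5 activity itself was not measured. Myc, the growth regulator, had 156, 138.5, 141 and 205 CPM in thrombus 1 to 4, 237, 198 and 115 CPM in vein wall, and 94.3, 60.7 and 131 CPM in spleen. All thrombus samples were above all spleen samples for Myc, while 4.98% of all genes had no overlap in this comparison, in either direction. The log2 fold change of Myc against spleen came to 0.75 ± 0.36 (SE) for thrombus and 0.94 ± 0.39 for vein wall. Myc and Ccnd3 were named for the smallest unadjusted edgeR p of this list against spleen, a choice that favours genes set apart from spleen. Ccnd3, which encodes cyclin D3, had 233, 143, 188 and 190 CPM in thrombus 1 to 4, 69.0, 108 and 80.8 CPM in vein wall, and 231, 136 and 140.2 CPM in spleen. Its vein wall samples lay below all others. In either direction, 13.2% of all genes had no overlap of vein wall with spleen, and 3.84% none of thrombus with vein wall. The log2 fold changes of Ccnd3 were -0.98 ± 0.36 in vein wall against spleen (adjusted p = 0.764 by edgeR) and 1.13 ± 0.34 in thrombus against vein wall (adjusted p = 1 by edgeR).

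Most adaptors and kinases that carry the receptor signal into branches other than STAT5 had log2 fold changes below 0. Of 14 tested, 4 had a log2 fold change above 0 in thrombus against spleen (median -0.40) and 0 in vein wall against spleen (median -0.51), while all tested genes had medians of 0.03 and -0.01. With the set of files in the fit 4 and 3 of the 14 were above 0, with medians of -0.33 and -0.38.

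Of 10 genes for other receptors and ligands of the common gamma chain family, 7 were above 0 in thrombus against spleen (median 0.16) and 4 in vein wall against spleen (median -0.14). Both medians were higher with the set of files in the fit, at 0.44 (8 above 0) and -0.06 (5 above 0). Il4ra, the IL-4 receptor chain, averaged 73.8 ± 33.4 CPM in thrombus (SD, n = 4), 52.0 ± 9.91 CPM in vein wall (n = 3) and 42.4 ± 15.3 CPM in spleen (n = 3). Il9r, the IL-9 receptor chain, lay between 5.09 and 17.35 CPM in thrombus, 5.61 and 23.2 CPM in vein wall, and 3.27 and 6.82 CPM in spleen, with a log2 fold change of 1.37 ± 0.84 (SE) for thrombus and 1.36 ± 0.87 for vein wall against spleen.

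Among 7 other Janus kinases and STATs, 3 were above 0 in thrombus against spleen (median -0.08) and 2 in vein wall against spleen (median -0.42). The vein wall median was close to 0, at -0.04 (1 above 0), with the set of files in the fit, and that of thrombus was -0.13 (3 above 0). Stat2, a factor of the type I interferon response, had 33.4, 29.9, 17.7 and 57.8 CPM in thrombus 1 to 4, 9.24, 18.6 and 8.28 CPM in vein wall, and 52.1, 24.0 and 26.7 CPM in spleen. Vein wall lay below all spleen samples, with a log2 fold change of -1.51 ± 0.61 (SE, adjusted p = 0.82 by edgeR). Of all genes, 13.2% had no overlap in this comparison, in either direction. Stat2 and Stat6 were named for the smallest unadjusted edgeR p of their list against spleen. Stat6, the factor of IL-4 signalling, averaged 126 ± 43.5 CPM in thrombus (SD, n = 4), 73.2 ± 13.4 CPM in vein wall (n = 3) and 98.6 ± 12.2 CPM in spleen (n = 3).

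The 5 other SOCS genes had 3 above 0 in thrombus against spleen (median 0.39) and 2 in vein wall against spleen (median -0.43). The vein wall median turned to 0.13 with the set of files in the fit, with 3 above 0, while thrombus again had 3 above 0 (median 0.33). Socs3, an inhibitor of IL-6 signalling, averaged 41.0 ± 17.5 CPM in thrombus (SD, n = 4), 18.5 ± 5.15 CPM in vein wall (n = 3) and 24.9 ± 13.9 CPM in spleen (n = 3), and Socs5 15.4 ± 7.92 CPM in thrombus, 20.4 ± 9.63 CPM in vein wall and 28.5 ± 14.8 CPM in spleen. Of 12 further negative regulators of JAK-STAT signalling, 6 and 4 were above 0 (medians -0.03 and -0.18), and 7 and 5 with the set of files (medians 0.01 and -0.10). Pias4, a SUMO ligase that acts on STATs, averaged 19.9 ± 9.18 CPM in thrombus, 11.6 ± 8.17 CPM in vein wall and 28.8 ± 5.66 CPM in spleen. Usp18, a brake on interferon signalling, averaged 91.6 ± 22.2 CPM in thrombus, 103.5 ± 8.52 CPM in vein wall and 59.4 ± 36.7 CPM in spleen.

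The genes whose pattern over the 10 samples came closest to that of Il2ra were Sla, Ctla4 and Ptcd2. Likeness was measured as the root mean square difference of log2 CPM profiles, each taken from its own mean, and came to 0.252, 0.268 and 0.271. Those closest to Socs1, the most variable of the 10, were Bloc1s4, Slc5a6 and Hras, with 0.393, 0.401 and 0.434.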

How the data were processed

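Treg RNA was made into full-length cDNA and fragmented libraries without strand marks or molecular identifiers, per the labels' protocols. The authors deposited counts of total, unique, intron and gene reads per gene for each library. GRCm38 is the build named in the submitters' processing notes; no aligner or counter is given in the sources used here. These deposited files also list the exon length of each gene in bases. Per the file headers, exon totals count reads that match in several places (13.6% to 21.8% of exon reads per library). Genes were matched over the sets of files by Ensembl ID (21899 shared by sets 1 and 3) and, for set 2, by name on the same chromosome and strand (20856 genes, 119 of them by a synonym). The matched genes hold 92.3% to 96.3% of exon reads.

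Counts of the 10 samples were fitted in 1 model with tissue alone by edgeR 4.0.16 in R 4.3.3 (TMM scaling, default filter on low counts, robust quasi-likelihood F test, two-sided). Adjusted p-values are over all 11706 genes, with a threshold of 0.05. CPM uses the TMM library sizes, and RPKM was computed from exon reads and exon length. Set of files as a covariate, DESeq2 1.42.0, other read classes and samples left out were alternatives. The fit was checked on simulated counts. The 10 genes are the whole named set. Genes of the pathway lists were named by the smallest unadjusted p (2 per list, over both comparisons with spleen; for 1 list they are not reported here), and genes of like pattern by the smallest root mean square difference. The genes, lists and rules were chosen with earlier results of these data known.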

Additional observations from a re-analysis of the deposited data

Results flagged for a closer look

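Within the 4 thrombus samples, 37 measures were checked for a single sample far from the others, and 3 were found; chance gives such a gap in about 1 of 20. For Il2rg CPM the gap of thrombus 2 to the nearest sample was 0.899 of the range (4062 CPM, against 2331 to 2505 CPM in the others). Thrombus 2 is the sample of set 2, and the set 2 samples of vein wall and spleen were highest too. For the ratio of Socs1 to Cish the gap of thrombus 3 was 0.887 of the range (1.66, against 0.129 to 0.302 in the others). For the intron share of Socs2 the gap of thrombus 2 was 0.858 of the range, over shares of 3.28% to 3.85%.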

How the results depend on the processing

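The number of all genes called by tissue alone moved with most settings. In thrombus against spleen it was 17, and it was 149 by DESeq2, 80 with no filter on low counts, 53 with the set of files as covariate, 35 with 12 separate libraries, 9 with total gene reads, and 6 to 34 with 1 sample left out. In vein wall against spleen it was 13, and it was 194, 66, 48 and 51 under the first 4 of these, 7 with unique exon reads, and 5 to 28 with 1 sample left out. Among samples left out, those of spleen moved it most: without spleen 1 it was 34 and 28, without spleen 2 it was 6 and 5, and without spleen 3-4 it was 8 and 6. In thrombus against vein wall it was 0, and it was 50 by DESeq2 and 2 with no filter. With the replicate number of the labels as a block over 12 libraries, 52 and 65 genes were called against spleen, with 0 of the 10 pathway genes; deviations of same-numbered thrombus and spleen libraries correlated at 0.384, 0.252, 0.156 and 0.0964, and those of vein wall and spleen at -0.0581 to 0.0574. The labels name no shared animal or batch behind a number and not every pair passed 0.1, so the numbers were not taken as pairs. Thrombus and spleen libraries of the same number were also of the same set of files. Vein wall 1 and 2 were of other sets than the spleen libraries of the same number. These correlations therefore cannot tell a pairing apart from the set of files.

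Of the 10 genes, 0 were called under each alternative but those that follow, which were added after the data had been seen. DESeq2 with the set of files called 1 (Socs1) in each comparison with spleen, and edgeR with the set of files called 0 to 1 in thrombus against spleen with 1 sample left out (Socs1, without thrombus 3). Of 876 recomputed log2 fold changes 94 had the other sign, none of them called. In both comparisons with spleen Il2ra, Socs1, Socs2 and Cish kept their sign in all 29 alternatives, with -2.63 to -0.92 (thrombus) and -2.78 to -0.95 (vein wall) for Socs1, and 0.30 to 0.83 and 0.47 to 1.06 for Il2ra. Jak3 in vein wall against spleen ran from -2.10 to -0.36, and Il2rg in thrombus against spleen, at -0.02, changed sign in 16 of 29. The causes were not tested. The spread within a tissue limits these comparisons, with 3 or 4 samples each.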
